A study of Mus musculus with 4 samples.

Results

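The 10 cyclic nucleotide phosphodiesterase genes described here are Pde4a, Pde4b, Pde4c, Pde4d, Pde7a, Pde7b, Pde8a, Pde8b, Pde10a and Pde1a. They were found by gene symbol among the 28611 rows of an RNA-seq table of mouse ovarian granulosa cells (GCs), and each has 1 row. The list was drawn up with results of the same comparison of genotypes in view, so the differences of its 10 genes are given as a description. No p-value is given for any of them, and the number that a test over all genes picks out is stated only beside the share it picks out of all genes.

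The libraries come from female C57BL/6 mice at 24 days of age, with 2 libraries per genotype and, by the design text, 2 mice per group. The Hdac3cKO mice were Hdac3flox/flox; Foxl2-CreERT2, so that the Cre recombinase was made where the Foxl2 promoter is active, which in the ovary is mainly the GCs, and was switched on by tamoxifen. The Hdac3flox/flox mice carried the same floxed alleles without the Cre. Both genotypes received 1 intraperitoneal injection of tamoxifen at 20 mg/kg at 18 days of age. None of the 4 libraries is from a mouse with the Cre and intact Hdac3, so an effect of the Cre itself cannot be told apart from that of the deletion. The labels name ovarian GCs, whereas the extraction protocol speaks of ovaries.

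The totals behind the values were 18452073 and 17621129 reads in Hdac3cKO, against 18310258 and 18346828 reads in Hdac3flox/flox. Hdac3 itself was at 19.4 and 19.2 RPKM (reads scaled to the exon length of a gene and to the total of its library) in Hdac3cKO, against 24.4 and 24.4 RPKM in Hdac3flox/flox. Both Hdac3cKO libraries were thus lower than both controls, with most of the Hdac3 reads still present. All exons of a gene are counted together, so these values do not measure how far the deletion went. The 10 GC markers listed had a summed level of 9685 to 10081 RPKM in Hdac3cKO and 8091 to 8567 RPKM in Hdac3flox/flox. Most of this sum was Inha, at 6094 and 5776 RPKM in Hdac3cKO, against 5280 and 4946 RPKM in Hdac3flox/flox. The GC markers did not all differ in the same direction. Markers of oocytes, theca, endothelium, stroma and smooth muscle were present in every library too.

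Cyclic AMP (cAMP) and cyclic GMP (cGMP) carry hormone signals inside cells, and phosphodiesterases end the signal by hydrolysing them. In the follicle, FSH and LH raise cAMP in GCs through Gs-coupled receptors. In the oocyte, a high cAMP level holds meiosis arrested, and cGMP that enters from the surrounding GCs protects that cAMP from the oocyte phosphodiesterase PDE3A. The PDE4, PDE7 and PDE8 families are selective for cAMP, PDE10A hydrolyses both nucleotides, and PDE1A does so when bound by calcium and calmodulin. In rodent GCs PDE4 enzymes, PDE4D above all, are known to limit the cAMP response to gonadotropins.

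What the 10 genes share is the metal-binding core of the catalytic domain. The HD signature of the superfamily begins with histidine and aspartate, and the next histidine follows within the same short stretch. The coding sequence of 12 codons from that histidine on is printed for every member, to show the shared core and the closeness of the families. It was located in the reference sequence (GRCm38), 5′ to 3′ on the gene's strand, and the capitals mark the codons of those 3 residues.
Pde4a: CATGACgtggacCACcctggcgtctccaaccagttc
Pde4b: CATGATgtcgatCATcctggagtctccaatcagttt
Pde4c: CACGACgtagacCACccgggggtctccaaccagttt
Pde4d: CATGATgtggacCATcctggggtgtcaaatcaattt
Pde7a: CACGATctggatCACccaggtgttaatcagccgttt
Pde7b: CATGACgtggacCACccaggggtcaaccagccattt
Pde8a: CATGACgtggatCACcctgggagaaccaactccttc
Pde8b: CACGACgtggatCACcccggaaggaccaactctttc
Pde10a: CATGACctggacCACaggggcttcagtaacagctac
Pde1a: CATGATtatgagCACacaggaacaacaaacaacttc

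Over these 36 bases, 12 were the same in all 10 genes. The 8 pairs of genes within a family had 27 to 31 identical bases, and the 37 pairs between families had 17 to 27. Pde4b and Pde4d shared 30. A search of the annotated transcripts for near copies (95% identity or more, across 50% or more of the shorter of the pair) found none between members. It found matches outside the list for 3 members. These were short stretches of 45 to 57 bases for Pde1a and stretches of 119 or 120 bases shared by Pde4c with 7 predicted genes. Pde8b matched Gm48420 over 447 bases, where the genes overlap on opposite strands, so this is the same locus and not a copy elsewhere. Reads from all these stretches are uncertain.

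The genes lie on 9 chromosomes, with Pde4d and Pde8b both on chromosome 13. Pde4d spans chr13:108449948-109953461 on the plus strand and has 20 annotated transcripts, the most of any member, while Pde8a, at chr7:81213596-81334533 on the plus strand, has 3. Pde4b lies at chr4:102087543-102607259 and Pde10a at chr17:8525372-8986648, both on the plus strand. The exon length behind the RPKM values ran from 4045 bases for Pde8a to 12598 bases for Pde10a, and since it is the length of all exons of a gene together, the values do not separate the long and short isoforms that the Pde4 genes make.

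Pde8a had by far the highest level of the 10 genes per exon length, at 31.8 and 31.6 RPKM in Hdac3cKO, against 28.2 and 25.9 RPKM in Hdac3flox/flox. In Hdac3cKO the order of mean levels after Pde8a was Pde1a, Pde7a, Pde7b, Pde4b, Pde10a, Pde4d, Pde8b, Pde4a and Pde4c. In Hdac3flox/flox it was Pde7a, Pde1a, Pde7b, Pde8b, Pde4b, Pde10a, Pde4a, Pde4d and Pde4c, with Pde7a and Pde1a nearly level. Neighbours whose replicates overlapped were Pde10a and Pde4d in Hdac3cKO, and in Hdac3flox/flox Pde7a and Pde1a, Pde1a and Pde7b, Pde7a and Pde7b, and Pde10a and Pde4a. Pde4d thus stood above Pde8b and Pde4a in Hdac3cKO and below both in Hdac3flox/flox, without overlap of replicates in either genotype. Averaged over the 4 libraries, 8 of the 10 genes were above 1 RPKM.

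**Figure D1:**
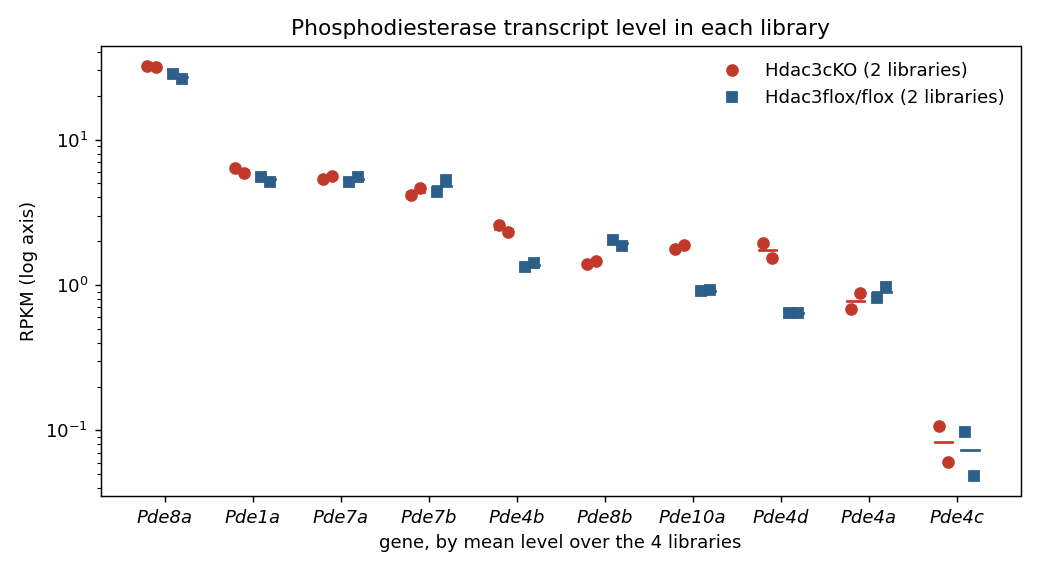
Level of each phosphodiesterase gene in every library, in RPKM on a log axis, with Hdac3cKO to the left of Hdac3flox/flox for each gene; points are libraries and short lines are means of 2. Pde8a lies at 25.9 to 31.8 RPKM in all 4 libraries, and the pairs of points of Pde4d, Pde10a and Pde4b lie apart between genotypes.

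Pde4d, Pde10a and Pde4b had the largest ratios of Hdac3cKO to Hdac3flox/flox. The fit over all 15528 genes above a filter on low values, limma with Benjamini-Hochberg adjustment, held 9 members, of which it called 4 higher (these 3 and Pde8a), 0 lower and 5 neither way. At an unadjusted p under 0.05, 5 were higher and 1 was lower, against 2274 higher and 3350 lower of all 15528 genes tested. Over all genes tested, 18.7% were called, 7.68% higher and 11% lower, but the members were chosen from this contrast, so nothing is read from their share. The median log2 difference was 0.21 over the 9 members and -0.04 over all genes tested. Of the 10 members, 5 were higher and 1 lower without overlap between genotypes. With 2 libraries per genotype such separation is common, and 64.5% of the 15512 genes so compared showed it, 26.8% higher and 37.8% lower. With no filter, limma called 0 of the 10 members either way and 954 of all 28611 genes. Without adjustment, at p under 0.05, 5 members were higher and 1 lower, against 2571 higher and 3876 lower of all genes. With any 1 library left out, limma called none of the 9 members, at an adjusted p under 0.05, and 0, 1, 98 and 0 genes of all those tested when Hdac3cKO replicate 1, Hdac3cKO replicate 2, Hdac3flox/flox replicate 1 and Hdac3flox/flox replicate 2 were left out. Each of these fits left a single library in 1 genotype, and nothing is read from the members in them. In bulk samples, fewer cells of a type and less RNA per cell cannot be told apart, and this holds for every difference below.

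**Figure D2:**
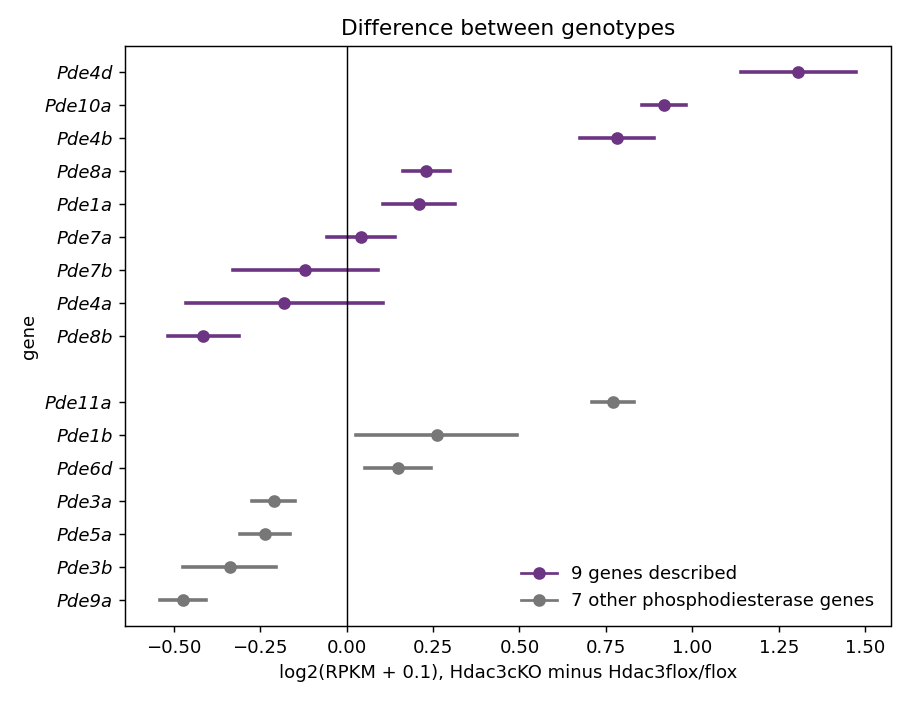
Difference of log2(RPKM + 0.1), Hdac3cKO minus Hdac3flox/flox, for the 9 members tested (upper part) and the 7 other phosphodiesterase genes tested (lower part). Bars run from the lowest to the highest of the 4 differences between single libraries of each genotype. Pde4d lies farthest to the right at 1.31, followed by Pde10a at 0.92 and Pde4b at 0.78, and Pde8b lies at -0.41.

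Pde4d, the cAMP-specific phosphodiesterase whose loss in mice impairs ovulation, differed most. It was at 1.95 and 1.54 RPKM in Hdac3cKO, against 0.637 and 0.645 RPKM in Hdac3flox/flox, from 431 and 326 reads against 140 and 142 reads. Both Hdac3cKO libraries were more than 1 RPKM while both controls were below it, although the Hdac3cKO libraries themselves differed by 1.26-fold. The means were 1.74 ± 0.286 RPKM in Hdac3cKO and 0.641 ± 0.00552 RPKM in Hdac3flox/flox (SD, n = 2 each), a ratio of 2.72. On the log2(RPKM + 0.1) scale, which understates the change of low genes, the difference was 1.31, and it ran from 1.15 to 1.47 when each library was left out in turn. The ratio of reads scaled to the library totals was 2.73, with an exact 95% interval of 2.38 to 3.14. Such intervals cover counting error only, since copies made by PCR cannot be told from independent molecules.

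Pde4b, the cAMP-specific enzyme best known from leukocytes and brain, was at 2.57 and 2.32 RPKM in Hdac3cKO, against 1.34 and 1.41 RPKM in Hdac3flox/flox, from 500 and 431 reads against 259 and 274 reads. Both Hdac3cKO libraries again stood above both controls, and the replicates of each genotype lay close together. The means of 2.44 ± 0.177 and 1.38 ± 0.0529 RPKM (SD, n = 2 each) for Hdac3cKO and Hdac3flox/flox gave a ratio of 1.77, and the log2 difference of 0.78 ran from 0.71 to 0.85 with 1 library left out. The ratio of scaled reads had an exact 95% interval of 1.59 to 1.98.

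The remaining members of the family did not separate by genotype. Pde4a was at 0.680 and 0.882 RPKM in Hdac3cKO, against 0.813 and 0.975 RPKM in Hdac3flox/flox, a log2 difference of -0.18 with overlapping replicates. Pde4c was the lowest of the 10 genes, with 11 and 6 reads in Hdac3cKO, against 10 and 5 reads in Hdac3flox/flox, and was below the filter. Its ratio of scaled reads was 1.15 with an exact 95% interval of 0.541 to 2.48, so a change of up to about that size was not detectable at this depth. The difference among the 4 Pde4 genes therefore lay in Pde4d and Pde4b.

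Summed over the 4 genes, Pde4 RNA was at 5.30 and 4.80 RPKM in Hdac3cKO, against 2.89 and 3.08 RPKM in Hdac3flox/flox, a ratio of 1.69. The makeup of this sum differed as well. Pde4d made up 36.7% and 32.1% of it in Hdac3cKO, against 22.1% and 20.9% in Hdac3flox/flox. Pde4a made up 12.8% and 18.4% in Hdac3cKO, against 28.2% and 31.6% in Hdac3flox/flox. The share of Pde4b was close in all 4 libraries, at 48.4% and 48.3% in Hdac3cKO, against 46.4% and 45.9% in Hdac3flox/flox. Pde4b was thus the most abundant Pde4 RNA per exon length in both genotypes, with Pde4d next in Hdac3cKO and Pde4a next in Hdac3flox/flox.

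**Figure D3:**
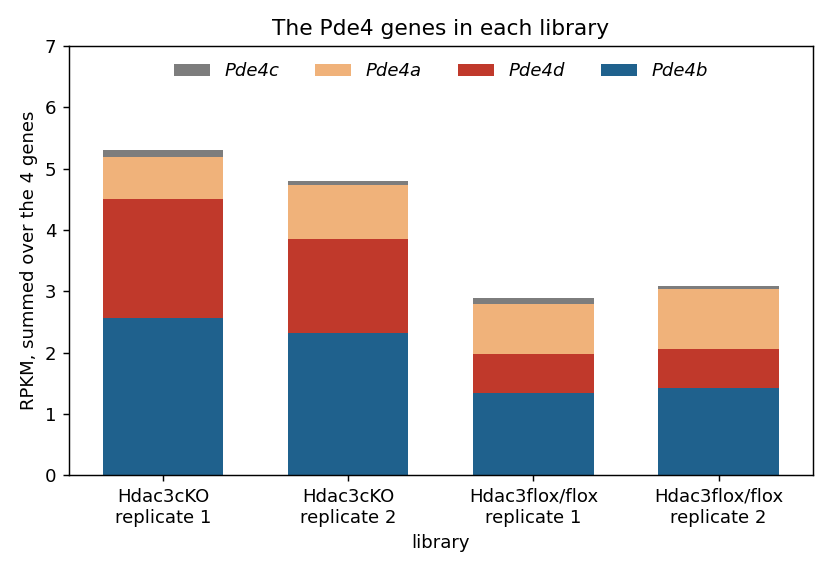
Summed level of Pde4a, Pde4b, Pde4c and Pde4d in each library, in RPKM, as stacked bars from 0 with Hdac3cKO on the left. The bars reach 5.30 and 4.80 RPKM in Hdac3cKO, against 2.89 and 3.08 RPKM in Hdac3flox/flox.

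The Pde7 genes, which encode cAMP-specific enzymes of high affinity, were at similar levels in both genotypes. Pde7a was at 5.35 and 5.60 RPKM in Hdac3cKO, against 5.08 and 5.56 RPKM in Hdac3flox/flox, with a log2 difference of 0.04 that ran from -0.02 to 0.11 with 1 library left out. Pde7b was at 4.15 and 4.62 RPKM in Hdac3cKO, against 4.34 and 5.24 RPKM in Hdac3flox/flox, with a log2 difference of -0.12 that ran from -0.25 to 0.01. The genotypes overlapped for both genes, and both differences changed sign with the library left out.

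The 2 Pde8 genes encode cAMP-specific enzymes of high affinity that are known to restrain steroidogenesis in the mouse adrenal gland and testis, and they differed in opposite directions. Pde8a, already the most abundant member, averaged 31.7 ± 0.158 RPKM in Hdac3cKO and 27.1 ± 1.65 RPKM in Hdac3flox/flox (SD, n = 2 each), from 2377 and 2254 reads against 2090 and 1921 reads. Its log2 difference was 0.23, with 0.17 to 0.29 when 1 library was left out. Pde8b was at 1.39 and 1.47 RPKM in Hdac3cKO, against 2.03 and 1.84 RPKM in Hdac3flox/flox, from 151 and 152 reads against 219 and 199 reads. Both Hdac3cKO libraries were below both controls for Pde8b, with a log2 difference of -0.41 (-0.48 to -0.35 with 1 library left out), and limma did not call it. As Pde8a made up most of the family, Pde8b contributed 4.19% and 4.43% of the summed Pde8 level in Hdac3cKO, against 6.72% and 6.65% in Hdac3flox/flox. Pde8b shares 447 exon bases, 7.60% of its exon length, with the antisense gene Gm48420, and whether strand was used in counting is not given in the sources read here.

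Pde10a, which encodes the dual-specificity enzyme best known from the striatum, was at 1.76 and 1.89 RPKM in Hdac3cKO, against 0.906 and 0.926 RPKM in Hdac3flox/flox, from 408 and 419 reads against 209 and 214 reads. Both Hdac3cKO libraries lay well above both controls, and replicates of either genotype lay close together. The ratio of means was 1.99 and the log2 difference 0.92, with 0.87 to 0.97 when 1 library was left out. The ratio of scaled reads had an exact 95% interval of 1.76 to 2.24. Pde10a is the only member whose exon length behind the values, 12598 bases, was not that of the annotation, 12849 bases, so its reads are the smallest whole numbers that fit its values.

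Pde1a was at 6.42 and 5.92 RPKM in Hdac3cKO, against 5.50 and 5.14 RPKM in Hdac3flox/flox, from 712 and 627 reads against 605 and 567 reads. The genotypes did not overlap, but the lower Hdac3cKO library was only 1.08-fold above the higher control, and limma did not call it. The log2 difference was 0.21, with 0.15 to 0.27 when 1 library was left out.

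All 10 members together came to 56.2 and 55.9 RPKM in Hdac3cKO, against 49.0 and 47.7 RPKM in Hdac3flox/flox. Pde8a alone was 56.7% and 56.5% of this sum in Hdac3cKO, against 57.6% and 54.3% in Hdac3flox/flox. The genes with the largest ratios, Pde4d, Pde10a and Pde4b, were thus minor parts of the summed RNA of the family.

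For the 3 genes with the largest differences, the 100 bases before a start site listed by RefSeq (GRCm38.p6) are printed, since these genes moved in the same direction. The capitals mark TGACG, the core of the cAMP response element, on either strand, and the first listed start is shown where a gene has several. Pde4d has 1 start listed in that table, Pde4b 4 and Pde10a 2. The gene annotation holds 20, 13 and 13 transcript starts for these genes, so the windows do not cover all of them. Which start is used in these samples was not measured.
Pde4d (chr13:108654077-108654176, plus strand): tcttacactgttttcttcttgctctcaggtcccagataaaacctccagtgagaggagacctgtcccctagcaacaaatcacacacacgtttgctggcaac
Pde4b (chr4:102421455-102421554, plus strand): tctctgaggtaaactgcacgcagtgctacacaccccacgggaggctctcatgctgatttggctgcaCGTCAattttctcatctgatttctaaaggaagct
Pde10a (chr17:8801645-8801744, plus strand): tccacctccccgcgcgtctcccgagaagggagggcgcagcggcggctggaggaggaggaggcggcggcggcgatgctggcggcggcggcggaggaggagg

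The stretches are unlike in base composition. The Pde4d window, counted from 250 bases before to 50 bases after the start, held 2 CpG dinucleotides, and the first windows of Pde4b and Pde10a held 8 and 23, against a median of 7 over all 32851 windows. Over the 22 windows of the 9 members with an entry, the letters TGACG occurred on either strand in 5 (22.7%), against 20.8% of all windows, and the full palindrome TGACGTCA, which contains them, in 0 of 22, against 1.79% of all. The GC box GGGCGG occurred in 7 of 22 (31.8%), against 35.7% of all windows, and the forkhead motif GTAAACA in 1 of 22 (4.55%), that of Pde4c, against 3.65%. Several windows of a gene overlap, so they are not independent. A match is a description of letters and not a site.

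The phosphodiesterase genes outside the 10 were taken from the family nomenclature, with earlier results of these data known. Of 14 such genes 13 had a row, Pde2a was not analysed here, and 7 passed the filter on low values. None was called higher and 1 was called lower by limma, against 7.68% higher and 11% lower of all genes tested. Without adjustment, at p under 0.05, there were 1 and 2, against 2274 and 3350 of all 15528 genes. The gene called was Pde9a, which encodes a cGMP-specific enzyme, at 1.78 and 1.66 RPKM in Hdac3cKO, against 2.39 and 2.46 RPKM in Hdac3flox/flox, a log2 difference of -0.47 ± 0.101 (SE; adjusted p = 0.0425 by limma). Among other settings, the call was lost with median-of-ratios scaling (adjusted p = 0.0514), with no filter (adjusted p = 0.0892) and with any 1 library left out (adjusted p of 0.126 to 0.184), and its adjusted p ran from 0.0267 to 0.0892 over the alternatives with all 4 libraries.

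The most abundant of the other genes, Pde6d, which encodes a prenyl-binding chaperone and not a catalytic subunit, was at 20.1 and 21.8 RPKM in Hdac3cKO, against 19.3 and 18.3 RPKM in Hdac3flox/flox (log2 difference 0.15, adjusted p = 0.142 by limma). Pde5a, which encodes the cGMP-specific enzyme inhibited by sildenafil, was at 3.34 and 3.62 RPKM in Hdac3cKO, against 4.07 and 4.16 RPKM in Hdac3flox/flox (log2 difference -0.24, adjusted p = 0.101 by limma). Pde1b, a relative of Pde1a, had a log2 difference of 0.26 (adjusted p = 0.378 by limma). Neither Pde6d, Pde5a nor Pde1b passed the test. The replicates of each of them did not overlap between genotypes, which held for 64.5% of the genes so compared. Pde11a, named after its values were seen, was at 0.937 and 0.992 RPKM in Hdac3cKO, against 0.514 and 0.534 RPKM in Hdac3flox/flox, a log2 difference of 0.77 ± 0.204 (SE; adjusted p = 0.0672 by limma, and 0.0063 to 0.194 over all alternatives). It encodes an enzyme that hydrolyses both nucleotides.

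Genes that make, sense and anchor the substrates of these enzymes were counted from 4 lists drawn from textbook knowledge with earlier results known. Of their 58 genes tested, 7 were higher and 10 lower in Hdac3cKO by limma. Over all genes tested the shares were 7.68% higher and 11% lower, and the counts of each list below stand beside these. Among 14 tested genes of cAMP synthesis, 2 were higher, 4 lower and 8 neither way, with a median log2 difference of 0.05. Lhcgr, the LH receptor, rose to 201.6 and 194.4 RPKM in Hdac3cKO, against 167.0 and 163.0 RPKM in Hdac3flox/flox (log2 difference 0.26 ± 0.0309, SE; adjusted p = 0.0133 by limma). Adcy7, an adenylyl cyclase, also rose, by 0.42 on the log2 scale (adjusted p = 0.0144). Adcy5, another adenylyl cyclase, fell by 0.55 (adjusted p = 0.0105), and so did Gnai1, an inhibitory G protein subunit, by 0.47 (adjusted p = 0.0128, both by limma). Genes of the list thus changed in both directions, cyclases among them.

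Of 19 tested effectors of cAMP, 2 were higher, 2 lower and 15 neither way, with a median log2 difference of -0.01. Rapgef4, the cAMP-activated exchange factor EPAC2, fell to 8.22 and 7.83 RPKM in Hdac3cKO, against 14.5 and 14.7 RPKM in Hdac3flox/flox (log2 difference -0.85 ± 0.0470, SE; adjusted p = 0.00445 by limma). Of the regulatory subunits of protein kinase A, Prkar2b was higher by 0.21 (adjusted p = 0.0237), Prkar1a was higher by 0.13 (adjusted p = 0.0389) and Prkar1b was lower, with a log2 difference of -0.58 (adjusted p = 0.0499, all by limma). Prkar2b was the most abundant of the 3, at 1039 and 1081 RPKM in Hdac3cKO, against 931.6 and 905.5 RPKM in Hdac3flox/flox. The call of Prkar1b was lost with median-of-ratios scaling (adjusted p = 0.0568), and its adjusted p ran from 0.00521 to 0.127 over the alternatives with all 4 libraries.

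Of 7 tested genes of cGMP synthesis and action, 2 were higher, 3 lower and 2 neither way, with a median log2 difference of -0.23. Nppc, which encodes the C-type natriuretic peptide that GCs release to raise cGMP, rose to 152.4 and 141.5 RPKM in Hdac3cKO, against 75.2 and 75.3 RPKM in Hdac3flox/flox (log2 difference 0.96 ± 0.0429, SE; adjusted p = 0.00337 by limma). Npr3, the natriuretic peptide receptor that clears the ligand, rose to 4.06 and 3.74 RPKM in Hdac3cKO, against 1.59 and 1.27 RPKM in Hdac3flox/flox (log2 difference 1.39 ± 0.138, SE; adjusted p = 0.00968 by limma). Npr1, the receptor for atrial natriuretic peptide, fell by 0.37 on the log2 scale (adjusted p = 0.0227), and Mrvi1, a substrate of cGMP-dependent protein kinase, fell by 0.61 (adjusted p = 0.0129, both by limma). Ligand and clearance receptor were thus higher, and the members that fell encode a receptor, a kinase substrate and, in Gucy1a3, a subunit of soluble guanylyl cyclase.

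Of 18 tested partners that anchor or recruit phosphodiesterases, 1 was higher, 1 lower and 16 neither way, with a median log2 difference of -0.01. Arrb1, an arrestin that can bring PDE4D to activated receptors, fell by 0.34 on the log2 scale (adjusted p = 0.0326), and Nde1, a dynein regulator, rose by 0.21 (adjusted p = 0.0364, both by limma). Arrb2, another arrestin in the list, named after its values were seen, was at 10.19 and 10.75 RPKM in Hdac3cKO. In Hdac3flox/flox it was at 9.29 and 9.52 RPKM (log2 difference 0.15, adjusted p = 0.105 by limma), and it did not pass the test. The anchoring proteins Akap13, with a log2 difference of -0.28 (adjusted p = 0.0566), and Akap8, with 0.11 (adjusted p = 0.0952, both by limma), did not pass the test. When genes of any level were tested, with no filter, Lhcgr, Prkar2b, Prkar1a, Prkar1b, Npr1, Gucy1a3, Arrb1 and Nde1 no longer passed (adjusted p of 0.0504 to 0.127 by limma), and the other genes said here to rise or fall did. Nearly all calls among the 58 genes were lost with any 1 library left out, which leaves a single library in 1 genotype.

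**Figure D4:**
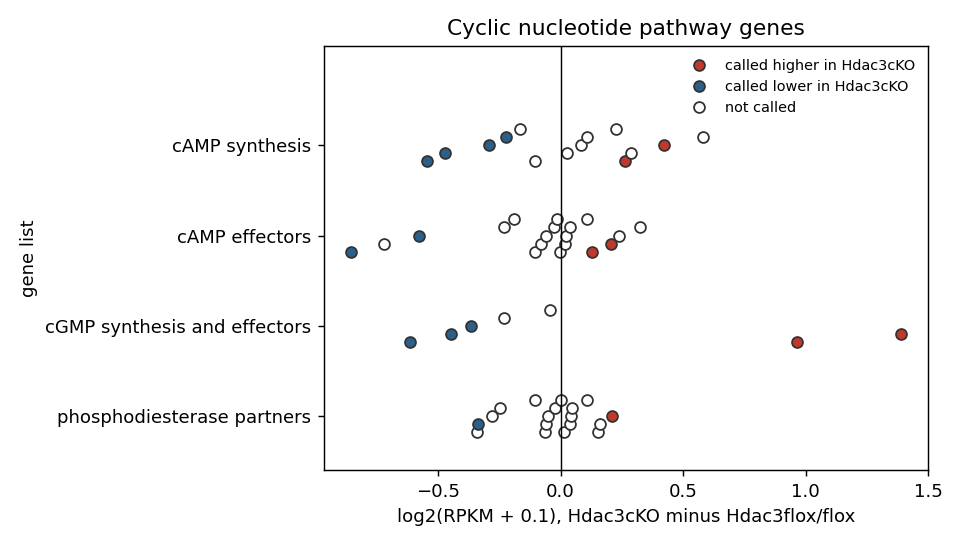
Difference of log2(RPKM + 0.1), Hdac3cKO minus Hdac3flox/flox, for each tested gene of the 4 pathway lists; red points were called higher, blue points lower and open points neither way by limma. Npr3 and Nppc lie highest at 1.39 and 0.96, and Rapgef4 lies lowest at -0.85.

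The 5 genes whose levels over the 4 libraries were most like those of Pde4d, by the distance of centred log2(RPKM + 0.1) values among 13292 genes, were Nr4a1 (distance 0.113), Gdnf (0.115), Adora1 (0.123), Mfsd2a (0.181) and Ntf5 (0.204). Nr4a1, a nuclear receptor and immediate early gene, was at 52.5 and 46.5 RPKM in Hdac3cKO, against 20.4 and 19.6 RPKM in Hdac3flox/flox. Gdnf, a neurotrophic growth factor, was at 52.1 and 46.7 RPKM in Hdac3cKO, against 19.6 and 19.8 RPKM in Hdac3flox/flox. The likeness is over 4 libraries only, and all 5 genes share with Pde4d a higher value in Hdac3cKO replicate 1 than in replicate 2.

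Markers of several cell types moved with genotype alongside the phosphodiesterase genes. Over all genes tested, limma called 7.68% higher and 11% lower. Of 10 GC markers tested, 6 were higher, Inha and Inhbb among them, and 2 were lower in Hdac3cKO. Those lower, named after their values were seen, were Foxl2, whose promoter drives the Cre, and Fshr, the FSH receptor. Foxl2 was at 125.9 and 127.5 RPKM in Hdac3cKO, against 156.0 and 149.9 RPKM in Hdac3flox/flox (log2 difference -0.27, adjusted p = 0.0125 by limma). Fshr was at 59.3 and 57.9 RPKM in Hdac3cKO, against 70.1 and 66.8 RPKM in Hdac3flox/flox (log2 difference -0.22, adjusted p = 0.0244 by limma). Inha, an inhibin subunit, was at 6094 and 5776 RPKM in Hdac3cKO, against 5280 and 4946 RPKM in Hdac3flox/flox (adjusted p = 0.0473 by limma, and 0.207 with no filter). Inhbb, another subunit of inhibins and activins, was at 1272 and 1295 RPKM in Hdac3cKO, against 940.5 and 885.6 RPKM in Hdac3flox/flox (adjusted p = 0.0071 by limma). Of 10 oocyte markers 1 was higher and none lower, with a sum of 237.8 to 267.6 RPKM in Hdac3cKO and 218.3 to 220.8 RPKM in Hdac3flox/flox.

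Among markers of endothelium, smooth muscle and stroma, those that limma called were lower in Hdac3cKO and the rest passed in neither direction, while voom also called 1 stroma and 1 smooth muscle marker higher. Of 10 endothelial markers 7 were lower, Cdh5, the cadherin of endothelial junctions, at 23.9 and 24.0 RPKM in Hdac3cKO, against 32.4 and 31.8 RPKM in Hdac3flox/flox (adjusted p = 0.00686 by limma). The whole list came to 84.7 to 85.3 RPKM in Hdac3cKO and 114.9 to 117.3 RPKM in Hdac3flox/flox. Of 6 smooth muscle markers tested 3 were lower, with a sum of 330.9 to 394.7 RPKM in Hdac3cKO and 482.8 to 489.9 RPKM in Hdac3flox/flox. Of 9 stroma and fibroblast markers 5 were lower, with a sum of 529.4 to 543.0 RPKM in Hdac3cKO and 586.9 to 587.8 RPKM in Hdac3flox/flox. Theca cell markers, of which Lhcgr is also expressed by GCs, had 1 of 7 higher and 3 lower, with a sum of 690.7 to 747.0 RPKM in Hdac3cKO and 807.6 to 878.3 RPKM in Hdac3flox/flox.

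For surface epithelium 2 of 6 tested were lower, the keratins Krt8 and Krt18, and both calls were lost with voom (adjusted p = 0.0567 and 0.118), with median-of-ratios scaling (0.0596 and 0.0551) and with no filter (0.0687 and 0.0948). The sums of 32.1 to 42.7 RPKM in Hdac3cKO and 32.9 to 38.7 RPKM in Hdac3flox/flox overlapped. For leukocytes, where Pde4b is best known, limma called 0 of the 5 markers tested, 1 was lower at an unadjusted p under 0.05 and voom called 0, with sums of 30.6 to 33.1 RPKM in Hdac3cKO and 34.15 to 35.05 RPKM in Hdac3flox/flox. With no filter, limma called 2 GC markers higher and 1 lower, 6 endothelial, 3 stroma and 2 smooth muscle markers lower, and none of the oocyte, theca, leukocyte or epithelium markers. No marker of any list was at 0 in every library. The part of these cell types in the differences of the phosphodiesterase genes was not tested.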

How the data were processed

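Ovarian RNA of 2 Hdac3cKO and 2 Hdac3flox/flox mice was sequenced from TruSeq libraries, and the authors deposited 1 table of RPKM values by gene symbol. The unit was read from the values. Bowtie 0.12.2 and the mm8 build are credited in the processing notes of the submitters, while the exon lengths that the RPKM values imply equal those of GENCODE M21 on GRCm38 for 24373 of 26800 matched genes (90.9%, relative tolerance 1e-06), so positions are given on GRCm38. The counting tool was not named in any source read here. RPKM takes no account of differences in composition between libraries. Reads and library totals were recovered from the values and these lengths, or as the smallest whole numbers in proportion.

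The members and lists were chosen with earlier results of these data known. log2(RPKM + 0.1) was fitted with limma 3.58.1 (trend, genotype only, 2 residual degrees of freedom) in R 4.3.3 on genes that reached 0.5 RPKM in 2 or more of the libraries, with two-sided p adjusted by Benjamini-Hochberg over 15528 genes and a threshold of 0.05. The p-values and SEs rest on the spread between 2 libraries per genotype. In this fit the variance of each gene is drawn toward a trend with level over all genes, so they are not its own spread alone. Named were all members, each other phosphodiesterase gene called and the 4 most abundant, up to 4 genes per pathway list with the smallest p, up to 2 markers per list of the highest level, and the 5 genes most like the member with the largest difference. The markers of the other lists are given as counts and sums. Names given to more than 1 row (24) were left out of lists, Itgam among them. Alternatives were other pseudocounts (1 and 0.01), other filters (none, or 1 RPKM in every library), scaling by median of ratios, voom on the recovered reads, a term for the replicate number, and each library left out in turn. Python 3.11.15, pandas 2.3.3 and numpy 2.4.6 were used for tables, and scipy 1.17.1 for intervals.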

Additional observations from a re-analysis of the deposited data

How the results depend on the processing

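The counts of higher and lower genes in Hdac3cKO over Hdac3flox/flox were 1193 and 1711 of all genes, 4 and 0 of the members, 0 and 1 of the other phosphodiesterase genes, and 7 and 10 of the pathway genes. With no filter on low values they were 410 and 544, 0 and 0, 0 and 0, and 3 and 4, where 28611 genes were tested. With limma voom on recovered reads they were 1867 and 2784, 5 and 1, 1 and 3, and 10 and 16. With at least 1 RPKM in every library, 2 members of 6 tested were called higher, Pde4d and Pde10a being no longer tested. Median-of-ratios scaling moved the median log2 difference of all genes from -0.04 to 0.01 and the share of higher calls from 41.1% (58.9% lower) to 54.5% (45.5% lower), left the members at 4 and 0, and gave 0 lower calls among the other phosphodiesterase genes. With 1 library left out, calls ran from 0 to 45 higher and from 0 to 53 lower over all genes, were 0 and 0 for members and for the other phosphodiesterase genes, and ran from 0 to 1 higher and 0 to 0 lower for the pathway genes. A pseudocount of 1 or 0.01 changed no count of members. Of 97 values of single members under the alternatives, 95 kept their direction and 91 lay within 1 SD. Much of this count was fixed in advance, so nothing is read from it. The filters and the term for the replicate number leave a difference as it was. With 2 libraries per genotype, leaving 1 out cannot shift it by more than the pooled SD used here. The 6 values that moved farther came from other pseudocounts or from voom. The cause of these shifts was not tested.

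The replicate numbers are shared by the genotypes, and nothing in the labels says that they pair the mice. Deviations of same-numbered libraries had a correlation of 0.076 across genes. With the replicate number as a block, 891 genes were higher and 1252 lower, 3 members were higher (Pde8a was lost), 0 of the other phosphodiesterase genes were lower, and 6 pathway genes were higher and 7 lower. Among named genes, the calls of Pde9a, Prkar1a, Prkar1b, Gucy1a3, Arrb1, Krt8 and Krt18 were lost with the block (adjusted p of 0.0521 to 0.0814 by limma). Depth limited what could be seen for Pde4c, with 5 to 11 reads per library.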
